A study of Mus musculus with 6 samples.

Results

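Hepatocyte identity transcription factors are the liver-enriched DNA-binding proteins that set and keep the gene program of the hepatocyte. They were examined here in the livers of pregnant mice with and without hepatic ChREBP, the carbohydrate-sensing transcription factor encoded by *Mlxipl*. The 8 genes, *Foxa1*, *Foxa2*, *Foxa3*, *Cebpa*, *Cebpb*, *Onecut1*, *Prox1* and *Gata4*, were chosen by name as liver factors outside the nuclear receptor family. Earlier results of these data were known when the genes were chosen. They are 8 of the 56691 genes of the deposited table, and all 8 were among the 10866 genes with a mean FPKM (read count divided by exon length and library size) of at least 1.

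The KPF group was 3 hepatocyte-specific *Chrebp* knockout dams (h*Chrebp* KO, replicates 1 to 3), and the WPF group was 3 control dams (replicates 2 to 4). Dams of both groups were pregnant, were homozygous for the floxed *Chrebp* allele by the study's methods (the sample labels call the controls WT), and received a high-fructose diet (HFrD) from mating until late gestation. The knockout was driven by an Alb-Cre transgene, which takes its activity from the albumin promoter of hepatocytes, and the controls carried no Cre. The age of the dams was not given in the sources used here. Poly(A) RNA of whole liver was sequenced, 1 library per dam, so that fewer cells of a type and less RNA per cell cannot be told apart.

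The libraries held between 10694496 and 14496630 counted reads, and each KPF library was smaller than each WPF library. Levels are given in CPM, the read count scaled to a common library size with TMM factors. KPF replicates 1, 2 and 3 held 174, 684 and 834 CPM of *Mlxipl*, and WPF replicates 2, 3 and 4 held 992, 1286 and 893 CPM. The groups did not overlap, but KPF replicate 3 was close to WPF replicate 4, and the KPF value minus the WPF value was -0.91 on the log2 scale, with standard error 0.45 and an edgeR adjusted p of 0.389. The deposited count covers the whole gene, whereas the deletion removes a single exon, so this is an incomplete check of the knockout. Libraries also stood apart in a gene of other cells, as *Des*, a muscle and stellate cell gene, stood at 475 CPM in KPF replicate 2, at 52.3 CPM in KPF replicate 1 and at 7.44 to 10.8 CPM in the other 4 libraries. *Alb*, the defining product of hepatocytes, was between 63119 and 153470 CPM. Each KPF library, at 88664 CPM or less, was below each WPF library, an order that 10.9% of the 10866 genes had. In the fit on all genes, the log2 difference of *Alb* was -0.63, smaller than its standard error of 0.71 (edgeR adjusted p = 0.773). In the fit on tested genes only, it was -0.56, larger than its standard error of 0.37 (edgeR adjusted p = 0.601). Both fits are described below, and neither established a change in *Alb*.

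The factors work as a network. FOXA proteins have a winged-helix domain that can bind DNA in compact chromatin and open liver enhancers for others. C/EBPα and C/EBPβ are leucine zipper proteins that form dimers with each other, the first sustaining metabolic genes and the second responding to inflammation, fasting and growth signals. ONECUT1 (HNF-6) carries a cut domain and a homeodomain and acts on genes of glucose and bile acid metabolism, PROX1 is a homeodomain protein of hepatocytes and lymphatic endothelium, and GATA4 is a zinc finger protein also found in sinusoidal endothelium and stellate cells.

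The bases just before the RefSeq start sites of the genes were read for letters that these proteins or ChREBP are known to prefer. RefSeq sequences on GRCm38.p6 were matched for 7 of the 8 genes, giving 10 start sites, and *Gata4* was not matched. Upstream windows of 250 bases were searched on both strands for CACGTG (the E-box, a building block of the element ChREBP binds), TGTTTAC (forkhead), TTGCGCAA (C/EBP) and ATTGAT (ONECUT). None of these letters contains another. Of the windows of the 10 start sites, the 3 that held a match are shown. Letters are 5′ to 3′ on the gene's strand, and capitals mark the match.

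*Onecut1*, chr9:74861671-74861920, plus strand: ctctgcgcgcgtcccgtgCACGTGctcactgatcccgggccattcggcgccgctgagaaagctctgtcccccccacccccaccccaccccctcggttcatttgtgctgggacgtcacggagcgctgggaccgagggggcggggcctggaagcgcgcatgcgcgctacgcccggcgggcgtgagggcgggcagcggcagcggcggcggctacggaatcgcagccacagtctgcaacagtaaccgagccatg

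*Foxa2*, chr2:148046970-148047219, minus strand: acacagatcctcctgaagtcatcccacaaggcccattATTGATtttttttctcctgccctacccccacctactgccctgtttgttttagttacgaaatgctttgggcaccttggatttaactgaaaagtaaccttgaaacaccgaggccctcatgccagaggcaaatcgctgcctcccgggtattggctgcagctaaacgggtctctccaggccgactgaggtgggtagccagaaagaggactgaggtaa

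*Foxa1*, chr12:57546112-57546361, minus strand: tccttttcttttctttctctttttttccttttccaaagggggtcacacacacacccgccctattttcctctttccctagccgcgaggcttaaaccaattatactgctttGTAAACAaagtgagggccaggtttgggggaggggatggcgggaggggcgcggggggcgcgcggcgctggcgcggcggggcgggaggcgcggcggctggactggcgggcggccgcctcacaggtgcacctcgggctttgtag

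The E-box of *Onecut1* lay 232 to 227 bases before the start site. The ONECUT letters of *Foxa2* lay 213 to 208 bases before the first of its 3 start sites, and the forkhead letters of *Foxa1*, read on the other strand, 141 to 135 bases before its start. Among all 32851 RefSeq windows of this length, 6.02% held CACGTG, 6.72% ATTGAT, 3.17% TGTTTAC and 0.164% TTGCGCAA. These matches are descriptions of the letters and not evidence of binding. The windows of *Foxa3*, *Cebpa*, *Cebpb* and *Prox1* held none of the 4 motifs, which says only that the letters are not there.

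Per exon length, *Cebpa* was the most abundant of the factors, with a mean of 57.8 FPKM over the 6 libraries. *Cebpb* followed at 42.2, *Foxa3* at 32.5, *Foxa2* at 20.5 and *Prox1* at 8.14 FPKM. *Gata4* at 2.34, *Foxa1* at 2.30 and *Onecut1* at 1.68 FPKM formed a low tier. Some steps in this order held in each library and others did not. *Foxa2* exceeded *Prox1* and *Prox1* exceeded *Gata4* in 6 of 6 libraries, whereas *Gata4* exceeded *Foxa1* in 3 of 6 and *Foxa1* exceeded *Onecut1* in 4 of 6. At the top, *Cebpa* was above *Cebpb* in 5 libraries, *Cebpb* above *Foxa3* in 4 and *Foxa3* above *Foxa2* in 5, so neighbours there overlapped. Ranked among the tested genes by FPKM, *Cebpa* lay at percentile 94.7 and *Onecut1* at percentile 18.1.

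**Figure D1:**
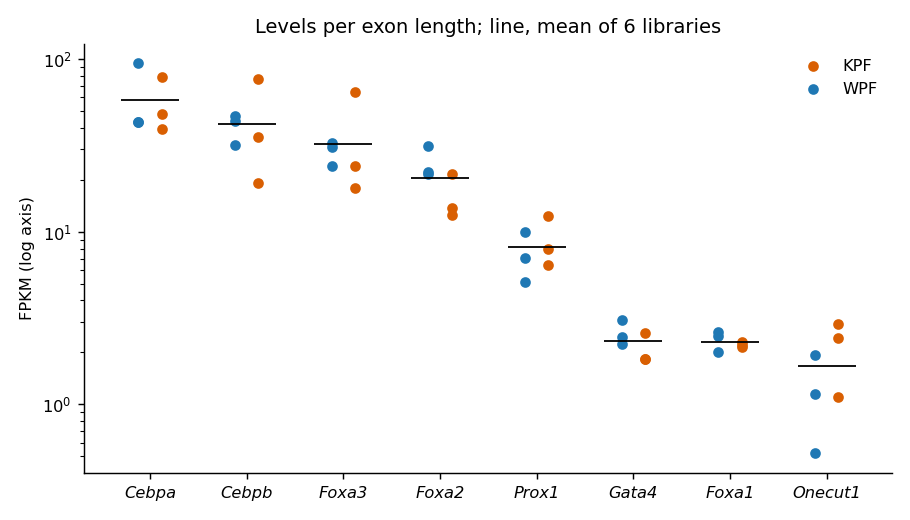
FPKM on a log axis for the 8 factors in order of their mean, with 1 point per library (WPF blue, KPF orange) and a line at the mean of 6 libraries. *Cebpa*, at 57.8 FPKM on average, leads, and *Gata4*, *Foxa1* and *Onecut1* lie together between 1.68 and 2.34 FPKM.

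KPF was compared with WPF to ask whether the factors that define the hepatocyte changed when its ChREBP was removed under HFrD. A gene was called changed at an unadjusted p under 0.05 in edgeR's quasi-likelihood test with a change of at least 1.5-fold. By that rule, 1 of the 8 factors, *Onecut1*, was called, higher in KPF, and none was called lower. The share called was 13.3% of all tested genes, 6.51% higher and 6.84% lower, so 1 of 8 was near the background. No factor had an adjusted p under 0.05, which 288 genes (2.65%) reached. These calls came from a model fitted to all 26984 genes with reads, and when the model was fitted to the 10866 tested genes only, 0 factors and 9.81% of tested genes were called (5.83% higher and 3.98% lower). No tested gene then had an adjusted p under 0.05 by edgeR, against 1176 at an unadjusted p under 0.05. DESeq2, fitted to all genes with reads and with its own adjustment, gave 125 tested genes an adjusted p under 0.05. The median gene had 22.9 degrees of freedom in the fit on all genes and 7.62 in the restricted fit on tested genes. On simulated counts the fit on all genes gave an adjusted p under 0.05 to more unchanged genes than that threshold allows, so its adjusted p values, and the count of 288 genes, may overstate the differences. Fold changes below come from the fit on all genes, and the restricted fit is given where it changes a call. An exact two-sided permutation test of 3 against 3 cannot give a p below 0.1.

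The median log2 fold change of the 8 factors was 0.06, against -0.05 for all tested genes, with 4 above 0 and 4 below. By CPM, the libraries of the groups overlapped for 8 of 8 factors, while 16.9% of the tested genes did not overlap.

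**Figure D2:**
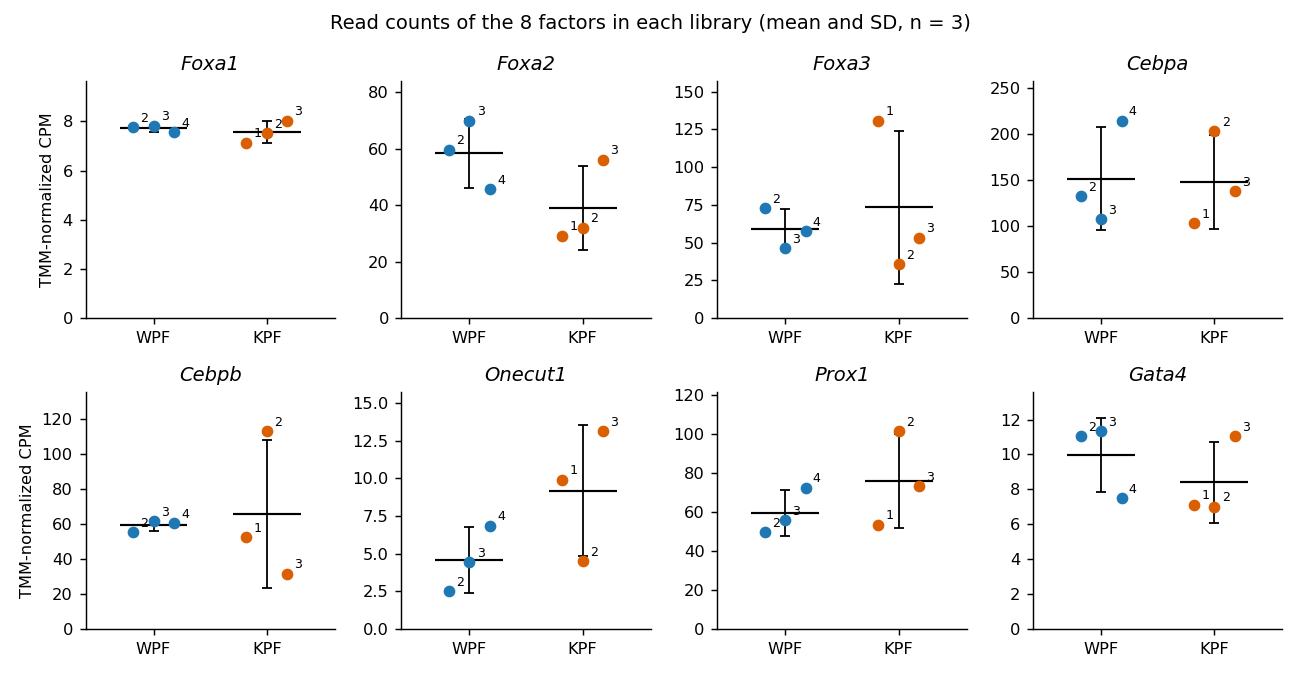
TMM-normalized CPM of each factor in the 3 WPF (blue) and 3 KPF (orange) libraries, numbered by replicate, with the group mean and SD (n = 3) and axes from 0. The groups overlap in every panel, *Foxa1* is nearly flat, and *Foxa3* and *Cebpb* each have 1 KPF library far above the rest.

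**Figure D3:**
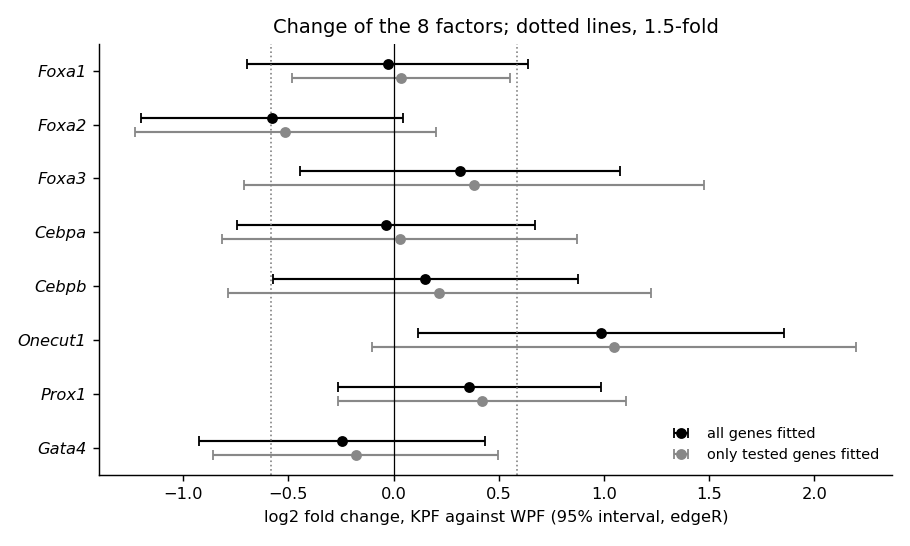
Log2 fold change of KPF against WPF with 95% intervals from edgeR, fitted on all genes (black) and on the tested genes only (grey), with dotted lines at 1.5-fold. Only the black interval of *Onecut1*, 0.12 to 1.86, leaves out 0, and its grey interval, -0.10 to 2.2, does not.

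*Foxa1* (ENSMUSG00000035451, GRCm39 chromosome 12, 57587414 to 57593702, minus strand) encodes the FOXA protein that, with FOXA2, establishes the competence of foregut endoderm to become liver. KPF replicates 1, 2 and 3 held 7.13, 7.52 and 8.03 CPM, and WPF replicates 2, 3 and 4 held 7.76, 7.82 and 7.56 CPM. No library stood out. The KPF value minus the WPF value was -0.03 on the log2 scale, with standard error 0.32 and an edgeR adjusted p of 0.983. The coefficient of variation over the 6 libraries was 4.06%, below the 10.4% that counting error alone would give on average for its 77 to 127 reads. The level was thus as even as such counts allow, but the interval from the restricted fit still reached from 0.716-fold to 1.47-fold.

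*Foxa2* (ENSMUSG00000037025, chromosome 2, 147884797 to 147888889, minus strand) encodes a FOXA protein of fasting metabolism and bile acid handling. Its values were 29.2, 32.0 and 56.0 CPM in KPF replicates 1, 2 and 3 and 59.6, 69.9 and 45.5 CPM in WPF replicates 2, 3 and 4. KPF replicates 1 and 2 were the lowest of all libraries, while KPF replicate 3 lay above WPF replicate 4. KPF replicate 3 was also the KPF library with the most *Mlxipl*, at 834 CPM, whose part was not tested. The log2 fold change of *Foxa2* was -0.58 (standard error 0.30), a 0.670-fold level. It did not pass the rule (edgeR's unadjusted p = 0.0677, adjusted p = 0.423). The exact two-sided permutation p was 0.2. In the deposited FPKM the groups did not overlap, at 12.4, 13.7 and 21.6 FPKM in KPF and 21.7, 31.4 and 22.3 FPKM in WPF, while 15.5% of tested genes did not overlap in FPKM, 12.2% with KPF below. The gap between KPF replicate 3 and WPF replicate 2 was 21.63 against 21.70 FPKM. Leaving out KPF replicate 3 gave -0.93 (edgeR adjusted p = 0.0620) and leaving out WPF replicate 4 gave -0.74 (adjusted p = 0.202), and both passed the rule. Leaving out any of the other 4 libraries gave -0.56 to -0.41, and none of these passed. With library totals in place of TMM factors, *Foxa2* was called (-0.66, edgeR adjusted p = 0.369) and *Onecut1* was not (0.84).

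*Foxa3* (ENSMUSG00000040891, chromosome 7, 18747209 to 18757463, minus strand), the FOXA gene with the highest mean FPKM here, had 131, 35.8 and 53.4 CPM in KPF replicates 1, 2 and 3. It had 72.9, 46.4 and 57.8 CPM in WPF replicates 2, 3 and 4. KPF replicate 1 was the highest library and KPF replicate 2 the lowest, so the WPF libraries lay within the KPF range. The log2 fold change of 0.31 had a standard error of 0.37 and an edgeR adjusted p of 0.782, and without KPF replicate 1 it was -0.40. KPF replicate 1 was also the library with the lowest *Mlxipl*, at 174 CPM, and the highest *Ddit3*, at 157 CPM; the part of these in the result was not tested.

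Because a ratio within a library does not depend on scaling, the FoxA genes were also set against each other. *Foxa3* made up 81.6% of the summed FoxA FPKM in KPF replicate 1 and between 41.7% and 56.9% in the other 5 libraries. *Foxa1* made up between 2.72% and 6.78%. The ratio of *Foxa1* to *Foxa2* in FPKM was 0.174, 0.168 and 0.102 in KPF and 0.0926, 0.0797 and 0.118 in WPF, a 1.5-fold higher ratio in KPF on the log scale, with WPF replicate 4 above KPF replicate 3 (exact two-sided permutation test, p = 0.2, adjusted p = 0.6 over 3 ratios). The ratio of *Foxa3* to *Foxa2* differed by 0.74 on the log2 scale, with SDs of 1.23 in KPF and 0.53 in WPF (exact two-sided permutation test, p = 0.6, adjusted p = 0.9). Without KPF replicate 1 this difference was 0.03, and without KPF replicate 3 it was 1.15.

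**Figure D4:**
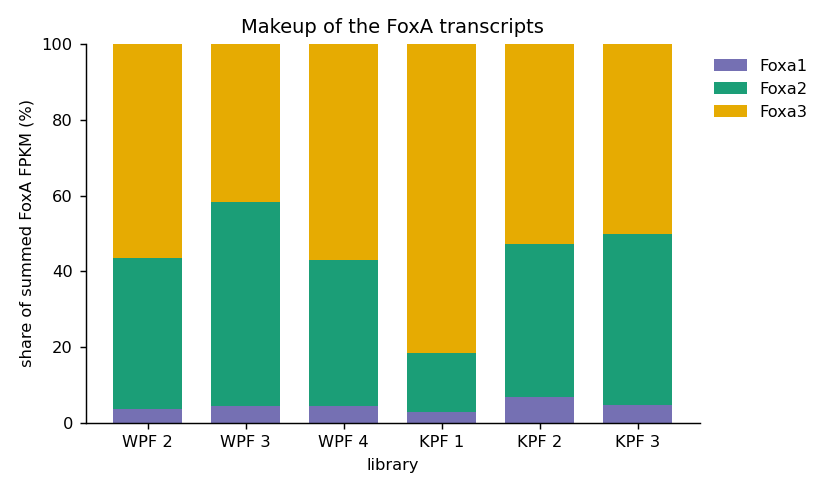
Share of *Foxa1*, *Foxa2* and *Foxa3* in their summed FPKM, in percent, stacked for each library. KPF replicate 1 stands apart with 81.6% *Foxa3* and 15.6% *Foxa2*, and *Foxa1* stays at or under 6.78% in each library.

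*Cebpa* (ENSMUSG00000034957, chromosome 7, 34818718 to 34821353, plus strand) encodes C/EBPα, needed for the metabolic maturity of hepatocytes. In KPF replicates 1, 2 and 3 its level was 103, 203 and 138 CPM, and in WPF replicates 2, 3 and 4 it was 133, 108 and 215 CPM. Each group had 1 high library, KPF replicate 2 and WPF replicate 4, and its other libraries lay between 103 and 138 CPM. These 2 libraries were also the highest for *Dbp* and *Tef*, output genes of the circadian clock, with 201 and 289 CPM of *Dbp* against 1.58 to 37.2 CPM in the others, and 366 and 334 CPM of *Tef* against 34.9 to 213 CPM. The part of these in the level of *Cebpa* was not tested. The group means, 148 ± 50.7 CPM in KPF and 152 ± 56.1 CPM in WPF (SD, n = 3), lay closer together than either SD. The KPF value minus the WPF value was -0.03 on the log2 scale, with standard error 0.34 and an edgeR adjusted p of 0.981, with an interval of 0.567-fold to 1.83-fold in the restricted fit.

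*Cebpb* (ENSMUSG00000056501, chromosome 2, 167530835 to 167532338, plus strand) had 52.7, 113 and 31.5 CPM in KPF replicates 1, 2 and 3, against 55.4, 61.7 and 60.6 CPM in WPF replicates 2, 3 and 4. The KPF libraries held both the highest and the lowest value. The spread was 65.8 ± 42.4 CPM in KPF and 59.3 ± 3.40 CPM in WPF (SD, n = 3), which was not tested as a difference in spread. The KPF value minus the WPF value was 0.15 on the log2 scale, with standard error 0.35 and an edgeR adjusted p of 0.898, and without KPF replicate 2 it was -0.51. KPF replicate 2 was also the library with the highest *Des*, at 475 CPM, and the highest *Pck1*, at 1683 CPM, whose part was not tested. The ratio of *Cebpb* to *Cebpa* differed by -0.02 on the log2 scale (exact two-sided permutation test, p = 0.9, adjusted p = 0.9 over 3 ratios). In FPKM it was 0.894, 0.977 and 0.401 in KPF and 0.732, 1.01 and 0.495 in WPF, so both groups had high and low libraries. *Tmem189*, with 114 to 408 reads, overlaps *Cebpb* on the opposite strand over 908 bases.

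*Onecut1* (ENSMUSG00000043013, chromosome 9, 74769203 to 74799063, plus strand) had the largest fold change of the 8. It had 9.90, 4.50 and 13.1 CPM in KPF replicates 1, 2 and 3 and 2.5, 4.45 and 6.84 CPM in WPF replicates 2, 3 and 4, from 28 to 139 reads. KPF replicates 1 and 3 were above all others, and KPF replicate 2 lay among the WPF libraries. The mean was 9.18 ± 4.36 CPM in KPF and 4.60 ± 2.18 CPM in WPF (SD, n = 3). The log2 fold change was 0.99 (standard error 0.42), a 1.98-fold level (edgeR's unadjusted p = 0.0278, adjusted p = 0.285). In the restricted fit it was 1.05, for which edgeR gave an unadjusted p of 0.0689, so the call was lost. The exact two-sided permutation p was 0.2. The call was also lost without KPF replicate 3, at 0.64, and without WPF replicate 2, at 0.70, and without WPF replicate 4 it was 1.38 (edgeR adjusted p = 0.0347). *Gm20649*, listed at 0 reads in all libraries, overlaps *Onecut1* on the same strand over 29556 bases, and how reads that fall in both were counted is not given in the sources used here. *Onecut2*, the paralog of *Onecut1*, with 8.24 to 16.5 FPKM, was higher per exon length in each library, and had a log2 fold change of 0.22 (adjusted p = 0.827 in edgeR's test).

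*Prox1* (ENSMUSG00000010175, chromosome 1, 189850232 to 189902911, minus strand) had a level of 53.3, 101 and 73.2 CPM in KPF replicates 1, 2 and 3. In WPF replicates 2, 3 and 4 it was 49.5, 55.8 and 72.3 CPM. KPF replicate 2 was the highest library, and the others overlapped. The KPF value minus the WPF value was 0.36 on the log2 scale, with standard error 0.30 and an edgeR adjusted p of 0.672, and without KPF replicate 2 it was 0.07. Because *Prox1* is also a gene of lymphatic endothelium, the markers of that cell type were summed. The 5 markers (*Flt4*, *Pdpn*, *Ccl21a*, *Mmrn1* and *Reln*) added up to between 41.4 and 71.5 CPM in KPF and between 32.8 and 47.8 CPM in WPF. Of the 3 that were tested, 2 were called higher (6.51% of all tested genes were). These were *Ccl21a* (log2 fold change 3.38, 22.8 CPM in KPF replicate 2 and 0.38 CPM in KPF replicate 3) and *Reln* (0.67), which is also a stellate cell gene. *Flt4* had -0.24, and the median of the 3 was 0.67. The part of these markers in the level of *Prox1* was not tested. On the opposite strand, *Prox1os* (ENSMUSG00000079045) overlaps the 5′ end of *Prox1* over 431 bases and had 46 to 187 reads per library, and *Gm28172*, with 15 to 96 reads, lies opposite *Prox1* over 964 bases. As no source used here says that the strand was kept, reads of such partners cannot be told apart where they overlap.

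*Gata4* (ENSMUSG00000021944, chromosome 14, 63436371 to 63509141, minus strand) had 7.13, 7.0 and 11.1 CPM in KPF replicates 1, 2 and 3 and 11.1, 11.3 and 7.50 CPM in WPF replicates 2, 3 and 4. Libraries fell near 7 or near 11 CPM, with KPF replicate 3 among the higher and WPF replicate 4 among the lower. KPF replicate 3 was also the KPF library with the most *Mlxipl*, at 834 CPM, whose part was not tested. For *Gata4*, the KPF value minus the WPF value was -0.25 on the log2 scale, with standard error 0.33 and an edgeR adjusted p of 0.813. *Gata4* is also made by other liver cells, whose markers were summed. The 12 markers of sinusoidal endothelium summed to 244.9 to 350.1 CPM in KPF and 229 to 272 CPM in WPF. Of these 12, all tested, 1 was called higher (*Pecam1*, 0.68), against 6.51% of all tested genes. *Stab2* had -0.47 and *Stab1* 0.48, and the median was 0.10. The 10 stellate cell markers summed to 265 to 808 CPM in KPF and 280.4 to 313 CPM in WPF, with 3 of 9 tested called higher (6.51% of all tested genes were), *Des* (4.31), *Cygb* (1.01) and *Dcn* (0.73), and a median of 0.49. *Des*, which is also a muscle gene, alone made up 475 of the 808 CPM in KPF replicate 2. *Dcn* and *Cygb* were instead highest in KPF replicate 1, at 109 and 18.8 CPM, with 35.5 and 9.95 CPM in KPF replicate 2. The part of muscle in *Des* was not tested. In the restricted fit only *Des* of these 3 was called. The part of sinusoidal and stellate cells in the level of *Gata4* was not tested.

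Set side by side, the factors did not follow the genotype as a block. *Foxa1*, *Foxa2* and *Gata4* had the same signs, below their own mean in KPF replicates 1 and 2 and WPF replicate 4 and above it in the other libraries, but *Foxa1* deviated little throughout and *Foxa2* lay at -0.03 in WPF replicate 4, against -0.26 for *Gata4*. *Cebpa*, *Cebpb* and *Prox1* were above their mean in both KPF replicate 2 and WPF replicate 4, which belong to different groups, although *Cebpb* was only 0.06 above it in WPF replicate 4. *Prox1* was also above its mean in KPF replicate 3, by 0.16.

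**Figure D5:**
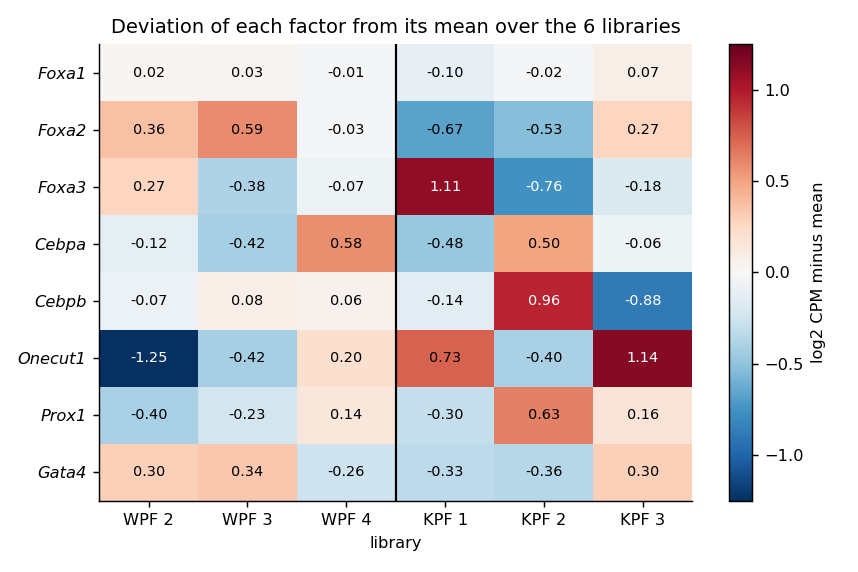
Log2 CPM of each factor minus its own mean over the 6 libraries, printed in the cells and coloured from blue (below) to red (above), with WPF left of the line and KPF right of it. Deviations run from -1.25 for *Onecut1* in WPF replicate 2 to 1.14 for *Onecut1* in KPF replicate 3, and *Foxa1* stays within 0.10.

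The tested genes nearest to each factor were found by the root-mean-square difference of the centred log2 CPM over the 6 libraries, as a description. *Nrbf2* (0.039) and *Bcar3* (0.085) were nearest to *Foxa2*, whose own deviation was 0.46. *Mllt1* (0.058) and *Uchl5* (0.064) were nearest to *Gata4*, with an own deviation of 0.30. *Prpf18* (0.081) and *Pxmp2* (0.084) were nearest to *Cebpa*, and *BC028528* (0.071) and *Igfals* (0.073) to *Prox1*. *Gm15564* (0.11) and *Lars2* (0.12) were nearest to *Onecut1*, *Tm4sf1* (0.15) and *Wfdc1* (0.15) to *Cebpb*, and *Fabp7* (0.15) and *Rpl9-ps4* (0.17) to *Foxa3*. For *Foxa1*, whose own deviation was only 0.051, *Pgam5* (0.018) and *Smim10l1* (0.031) were other even genes.

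Other factors of the same network were read as a list of 20, of which 18 were tested. Its 1 call, against 6.51% of all tested genes called higher, was *Zbtb20*, a zinc finger repressor of fetal liver genes, higher in KPF at 99.3, 186 and 121 CPM against 51.4, 83.2 and 66.6 CPM in WPF replicates 2, 3 and 4. Each KPF library was above each WPF library, an order that 6.02% of all tested genes had. The KPF value minus the WPF value was 1.01 on the log2 scale, with standard error 0.32 and an edgeR adjusted p of 0.105. It was called in the restricted fit as well. *Nfix* (0.63) and *Creb3l3* (0.67) came next and did not pass the rule, with unadjusted p values of 0.0661 and 0.0804 in edgeR's test. The nuclear receptors *Hnf4a* and *Nr5a2*, the usual partners of the factors above, had log2 fold changes of 0.16 and -0.06. The median of the list was 0.13, against -0.05 for all tested genes.

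Of 13 genes of the C/EBP family and its regulators, 11 were tested and 2 called, both higher (6.51% of all tested genes were) and both also called in the restricted fit. *Ddit3* (CHOP), a stress-induced C/EBP protein that blocks the others, was measured at 157, 44.7 and 31.1 CPM in the KPF libraries, against 26.1, 24 and 14.6 CPM in WPF replicates 2, 3 and 4. Its log2 difference was 1.85 (standard error 0.43, edgeR adjusted p = 0.0160, and 0.430 in the restricted fit). *Cebpe*, best known from granulocytes, had a log2 difference of 0.95 (standard error 0.32, edgeR adjusted p = 0.147). The 6 neutrophil markers summed to between 3.12 and 6.75 CPM over the libraries, with none of the 2 tested called, *S100a8* (0.31) and *S100a9* (0.21), and a median of 0.26, and their part in *Cebpe* was not tested. *Trib3*, a pseudokinase of the stress response, had -0.92 and did not pass the rule, and the median of the list was 0.07.

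Among 24 textbook hepatocyte genes that these factors are known to act on, 6 were called lower and 1 higher, against 6.84% and 6.51% of all tested genes, with a median log2 fold change of -0.28. The list was drawn up with earlier results of these data known, so these counts are a description. The sum of the 24 genes, carried mostly by *Alb*, was 97855 to 124250 CPM in KPF and 128850 to 212810 CPM in WPF without overlap. *Alb* itself was not called (log2 fold change -0.63, edgeR adjusted p = 0.773), and the sum was not tested. Among single tested genes, 10.9% had each KPF library below each WPF library. The 8 factors summed to 384 to 504 CPM in KPF and 365 to 473 CPM in WPF. The members with the smallest p were *Igfbp1*, *Apoh* and *Pck1*. *Apoh*, a plasma phospholipid-binding protein, was lower without overlap, at 201, 183 and 337 CPM in KPF and 666, 476 and 524 CPM in WPF replicates 2, 3 and 4 (log2 fold change -1.21, adjusted p = 0.0753 in edgeR's test). *Igfbp1*, a binding protein for insulin-like growth factors and a FOXA2 target, had a log2 fold change of -2.53 (edgeR adjusted p = 0.00631, and 0.430 in the restricted fit), but WPF replicate 4, at 12.8 CPM, lay within the KPF range of 8.22 to 16.8 CPM. *Pck1*, the rate-limiting enzyme of gluconeogenesis, was called higher at 1.78, with 1683 CPM in KPF replicate 2 and 259 and 316 CPM in KPF replicates 1 and 3. The other calls were lower: *G6pc* (-2.65), *Cyp8b1* (-1.28), *Ttr* (-1.05) and *Gys2* (-0.79). Of these, *Ttr* did not overlap between the groups, whereas WPF replicate 4 held the lowest *G6pc* of all libraries, at 4.58 CPM, and 9.28 CPM of *Cyp8b1*, below KPF replicates 1 and 3. These 4 lost their calls in the restricted fit, where *Igfbp1*, *Apoh* and a further gene, *Apoa2* (-0.79), were called lower and *Pck1* higher, against 3.98% and 5.83% of all tested genes.

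Of the other cell types and stages, 2 of 9 fetal liver genes were tested and 1 was called higher (6.51% of all tested genes were), *H19* (4.15). It stood at 129 CPM in KPF replicate 2 and at 4.34 CPM or less in the other libraries, and was not called in the restricted fit. KPF replicate 2 was also the library with the highest *Des*, a muscle and stellate cell gene, at 475 CPM, whose part in *H19* was not tested. *Afp*, the fetal albumin-like protein, had 2.41 to 6.73 CPM and a log2 fold change of -0.33. The fetal list had a median of 1.91 from these 2 tested genes. *Lin28b* had 0 reads in all libraries. None of the 3 tested bile duct markers was called, *Spp1* (-0.60), *Cdh1* (-0.44) and *Krt19* (0.65), with a median of -0.44, and the 9 bile duct markers summed to 35.5 to 54.6 CPM in KPF and 44.6 to 71.8 CPM in WPF. Of 11 macrophage markers, all tested, 1 was called lower, *Cd5l* (-0.82), against 6.84% of all tested genes. *C1qa* (-0.47) and *Marco* (0.39) were not called, and the median was -0.27. *Cd5l* was not called in the restricted fit. The 11 markers summed to 207 to 274 CPM in KPF and 208 to 404 CPM in WPF.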

How the data were processed

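Liver poly(A) RNA of 3 KPF and 3 WPF dams was sequenced by the authors as paired-end reads. The submitters' processing notes name cutadapt 1.9.1, HISAT2 2.2.1, HTSeq 0.6.1, DESeq2 and GRCm39. The authors deposited 1 table of genes, holding raw counts and, for the same genes, FPKM, which equalled the count divided by exonic length and library total for 100% of the values within 0.011. Gene symbols were matched for 52073 of 56691 gene IDs.

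KPF was compared with WPF on the deposited counts by edgeR 4.0.16 (R 4.3.3, TMM, quasi-likelihood test, Benjamini-Hochberg adjustment over 10866 genes with mean FPKM of at least 1), with no covariate. All genes with reads entered the fit, whereas the alternative with filterByExpr was fitted only to the genes that filter kept. The fit on tested genes only was added after seeing the data. Exact permutation tests of single factors used log2(CPM + 0.5), and those of the ratios used the log2 ratio of the raw counts. Alternatives were DESeq2 1.42.0, its size factors, library totals, limma 3.58.1 on log2(FPKM + 1), log2(FPKM + 0.1) and TPM, 3 filters, each replicate left out and the replicate number as a block. Tests were tried on simulated counts, where the fit on all genes gave an adjusted p under 0.05 to more unchanged genes than that threshold allows.

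The factors and gene lists were chosen with earlier results of these data known. The calls of a list beside the share of all tested genes are therefore a description and not a test. Beside the 8 factors and *Mlxipl*, the genes named were the 3 of each list with the smallest p, plus other called members and genes a result turned on, chosen after their values were seen, and the 2 nearest in pattern. Replicate pairs of a group differed by more than sampling noise (chi-square per gene of 48.1 or more). Replicates are separate samples in the labels. Counted reads per library, 10694496 to 14496630, limit the precision for *Foxa1*, *Onecut1* and *Gata4*, which had 28 to 158 reads.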

Additional observations from a re-analysis of the deposited data

How the results depend on the processing

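*Onecut1* kept its direction under all 16 alternatives that tested it and lost its call under 8, with library totals (0.84), limma on log2(FPKM + 1) (0.52), log2(FPKM + 0.1) (0.85) and log2(TPM + 1) (0.55), filterByExpr (1.02) and only the tested genes fitted (1.05), and among replicates left out (0.64 to 1.38). *Foxa2* was lower under all 17 and gained a call with library totals (-0.66), limma on log2(FPKM + 1) (-0.64) and limma on log2(TPM + 1) (-0.77), and with a replicate left out (-0.93 to -0.41). *Gata4* and *Prox1* kept their signs (-0.49 to -0.14 and 0.07 to 0.71). *Foxa1* changed sign with filterByExpr (0.0093), only the tested genes fitted (0.037) and a replicate left out (-0.074 to 0.012). *Cebpa* changed sign with filterByExpr (0.0047), only the tested genes fitted (0.028) and a replicate left out (-0.35 to 0.29). *Cebpb* changed sign with limma on log2(FPKM + 1) (-0.098), log2(FPKM + 0.1) (-0.11) and log2(TPM + 1) (-0.22), and a replicate left out (-0.51 to 0.49). *Foxa3* changed sign with limma on log2(TPM + 1) (-0.054) and a replicate left out (-0.40 to 0.63). With replicates left out, the ratio of *Cebpb* to *Cebpa* ranged from -0.28 to 0.39, that of *Foxa1* to *Foxa2* from 0.45 to 0.84 and that of *Foxa3* to *Foxa2* from 0.03, without KPF replicate 1, to 1.15. The cause was not tested. The filterByExpr setting, here and below, was also fitted only to the genes it kept. It thus changed the filter and the fit together and is no separate check beside the fit on tested genes only.

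The count of factors called was 1, and with library totals, limma on log2(FPKM + 1) and limma on log2(TPM + 1) it was 1 too, but *Foxa2* in place of *Onecut1*. It was 0 with limma on log2(FPKM + 0.1), a mean FPKM of at least 5 (*Onecut1* not tested), filterByExpr and only the tested genes fitted, and 0 to 2 with a replicate left out. Calls in the direction of KPF made up 48.8%, against 15.3% with limma on TPM, where the median of all tested genes was -0.21, and 59.5% with only the tested genes fitted. Genes called higher were 707, against 238, 257 and 166 with limma on log2(FPKM + 1), log2(FPKM + 0.1) and TPM, 1576 with no filter, 308 with a mean FPKM of at least 5, and 577 to 1001 with a replicate left out. Genes called lower were 743, against 386 with a mean FPKM of at least 5, 432 with only the tested genes fitted, and 546 to 1162 with a replicate left out. Genes with an adjusted p under 0.05 were 288, against 125 with DESeq2, 0 with limma on log2(FPKM + 1) (1000 at an unadjusted p under 0.05), 1 with each other limma setting, 144 with a mean FPKM of at least 5, 0 with filterByExpr (1442 unadjusted) and 0 with only the tested genes fitted (1176 unadjusted), and 184 to 862 with a replicate left out.

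The replicate numbers 2 and 3 occur in both groups, and no source used here says that they pair the dams. The correlation of deviations was 0.044 and -0.017, which cannot decide this with so few libraries. With the replicate block, which rests on the replicate numbers, 2 factors were called, *Onecut1* (1.23) and *Prox1* (0.71). *Foxa3* was -0.41 and *Cebpa* 0.49 with changed sign, and 720 genes had an edgeR adjusted p under 0.05.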
